A study of Mus musculus with 70 samples.

Results

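In the liver methylomes of the BXD mice, 1506 autosomal bins of 150 bp without a listed sequence variant split the mice into a low and a high state, out of 279762 bins without variants and with reads in every mouse (0.538%). The bins were chosen by the measured values themselves. With the 69 mice sorted by methylation level, neighbouring values had to lie more than 0.6 apart on the log2 scale, with at least 5 mice on each side of that gap and no mouse at the lowest value of the data. The separation of the mice at these bins is therefore a description and was given no test. Joined where they lay no more than 1000 bases apart, the 1506 two-state bins formed 1010 regions, of which 666 held 1 bin, 248 held 2, 60 held 3, 25 held 4 and 11 held 5 or more. By the same rule, 557 of 58462 autosomal bins with variants (0.953%) had 2 states.

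DNA methylation at CpG sites silences most copies of mobile elements in mammalian genomes, and endogenous retroviruses and L1 elements carry much of the CpG methylation outside genes. An epiallele is a stretch of DNA whose methylation differs between individuals, and in the mouse the best known ones sit in intracisternal A-particle (IAP) elements, retroviruses that are still mobile. Mobile elements also differ between inbred strains by being present or absent. In MBD-seq, DNA fragments are captured by a methyl-CpG binding domain protein, so that unmethylated DNA and missing DNA both leave few reads, and at the two-state bins these cannot be told apart.

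The libraries came from 70 livers, 67 of females and 3 of males, in 17 strain-by-diet groups of 3 to 8 mice. The BXD strains are recombinant inbred lines made from C57BL/6J (B6) and DBA/2J (D2), so that each autosomal locus is fixed for 1 of 2 parental haplotypes. On standard chow (CD) there were 3 BXD9, 8 BXD40, 3 BXD48, 3 BXD48a, 6 BXD65, 4 BXD65b, 4 BXD73, 3 BXD73b, 7 BXD79 and 5 BXD102 mice, with 5 B6D2F1 and 4 D2B6F1 hybrids, which carry both parental haplotypes and differ in the direction of the cross. On a high-fat diet (HFD, 60% of calories from fat) there were 3 mice each of BXD48, BXD48a, BXD65, BXD73 and BXD73b. BXD48a, BXD65b and BXD73b are sub-strains closely related to the strain of the same number. The 3 males were 1 BXD102, 1 B6D2F1 and 1 D2B6F1 mouse. The ages given with the samples, 30 to 488 days, are those at the first weighing and not at tissue collection. BXD65 HFD replicate 2, whose identity the study doubts, was kept out of the rule, which leaves 69 mice, 60 of them inbred. Each library is 1 mouse. The 69 libraries held 11028723 to 25828399 reads in bins, and the typical bin had 21 to 53 of them.

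The letters of 8 two-state bins are printed here because they show what kind of sequence carries the 2 states. They are the forward strand of the reference genome (GRCm38.p6, RefSeq), and capitals mark CpGs. The first 4 are the bins linked by shared sequence to the most other two-state bins, 1 from each of the 4 largest groups of linked bins.
Group 1 (chr6:73212751-73212900): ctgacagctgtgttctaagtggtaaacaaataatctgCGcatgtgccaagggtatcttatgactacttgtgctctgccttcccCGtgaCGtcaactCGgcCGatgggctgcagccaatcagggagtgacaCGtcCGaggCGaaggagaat
Group 2 (chr2:141103501-141103650): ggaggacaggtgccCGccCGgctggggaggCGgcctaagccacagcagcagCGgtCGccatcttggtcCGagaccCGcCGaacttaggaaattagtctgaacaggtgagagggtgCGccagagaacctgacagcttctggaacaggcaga
Group 3 (chr9:105629551-105629700): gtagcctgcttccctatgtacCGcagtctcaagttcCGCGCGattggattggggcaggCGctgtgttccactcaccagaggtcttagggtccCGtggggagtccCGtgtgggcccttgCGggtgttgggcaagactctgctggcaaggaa
Group 4 (chr6:145996801-145996950): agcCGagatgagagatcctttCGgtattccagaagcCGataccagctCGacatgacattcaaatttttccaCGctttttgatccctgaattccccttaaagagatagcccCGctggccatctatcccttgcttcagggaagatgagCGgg
Widest gap (chr8:20946151-20946300): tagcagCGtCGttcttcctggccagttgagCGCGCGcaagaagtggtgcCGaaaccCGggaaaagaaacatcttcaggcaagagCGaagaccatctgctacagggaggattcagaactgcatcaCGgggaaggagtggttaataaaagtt
Most members (chr4:118547851-118548000): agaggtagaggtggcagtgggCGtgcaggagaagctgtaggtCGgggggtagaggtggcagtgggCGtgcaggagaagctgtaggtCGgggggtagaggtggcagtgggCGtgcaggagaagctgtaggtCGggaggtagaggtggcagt
Farthest from variants (chr12:95617501-95617650): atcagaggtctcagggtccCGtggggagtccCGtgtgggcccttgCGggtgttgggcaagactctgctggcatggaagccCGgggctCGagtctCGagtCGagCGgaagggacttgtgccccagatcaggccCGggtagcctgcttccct
Found once in the genome (chr7:4455301-4455450): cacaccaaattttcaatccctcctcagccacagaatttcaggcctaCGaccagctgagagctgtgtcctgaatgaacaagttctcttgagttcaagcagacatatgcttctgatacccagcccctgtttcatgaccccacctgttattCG
The bins of groups 1, 2, 3 and 4 held 8, 9, 8 and 7 CpGs. Groups were linked bin by bin, so that 2 bins of a group need not share letters. The letters of the group 1 bin are those of an IAP long terminal repeat and those of the group 2 bin are those of the 5′ end of an L1 element, by background knowledge and not by a repeat annotation, which was not used here. The bin farthest from a listed variant shares a run of 60 bases with the group 3 bin, although the bins lie on chromosomes 12 and 9. The bin of the region with the most members is a tandem repeat, in which 103 of 106 bases equal the base 44 positions further on.

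The 2 states were far apart. The gap between the sides had a median of 0.86 (range 0.60 to 3.81), and it was over 1 in 492 bins and over 2 in 19. Between the means of the sides the difference had a median of 2.63 log2 units, or 6.21-fold, and it ranged from 1.51 to 5.98. The median bin had a mean of 1.32 logRPKM (log2 of reads scaled to bin length and library size) on the low side and of 4.01 on the high side. In reads, the typical low mouse had 5 and the typical high mouse 42. The low state was thus close to the floor of the assay. In 1322 of the 1506 bins the mouse with the fewest reads had 1 to 3, while the rule left out 12993 bins without variants at which a mouse had no reads, 10955 of which also had a gap over 0.6 with at least 5 mice a side. Among the bins that the rule kept, the high state was the more common one, held by most mice in 1304 bins and by the minority in 202. Because bins with a mouse without reads were left out, this is no count over all bins with a gap.

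The bins nearest to the threshold show where the rule stops. Just inside lay chr11:103959601-103959750, where the gap ran from 0.98 to 1.58 with 5 low and 64 high mice, and chr11:85440601-85440750, where it ran from 3.33 to 3.93 with 27 and 42. Just outside lay chr1:86319901-86320050, with a gap from 2.62 to 3.22 and 34 low mice, and chr14:111080701-111080850, with a gap from 1.61 to 2.21 and 33 low mice. Inside and outside bins differed in the fourth decimal of the gap.

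Sides followed strain. At 1342 of the 1506 bins (89.1%) all mice of each strain and cross fell on the same side, in 143 different patterns. Strain took up a median of 93.7% of the variance among the 69 mice, and over 90% in 1291 bins. For comparison, 471 of the 557 two-state bins with variants (84.6%) had each strain on 1 side. The share of bins at which a strain was low ranged from 25.7% in BXD48a (387 bins), through BXD65 (391) and BXD65b (393) to 45.1% in BXD73 (679) and 46.1% in BXD73b (694). BXD102 was low at 626, BXD9 at 613, BXD79 at 531, BXD40 at 456 and BXD48 at 392. Each of the F1 crosses was low at 5 bins, or 0.332%. The most common pattern was BXD102 alone on the low side (97 bins), followed by BXD73 with BXD73b (73), BXD65 with BXD65b (72), BXD79 with BXD9 (66), BXD102 with both BXD73 strains (48) and BXD40 alone (41).

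**Figure D1:**
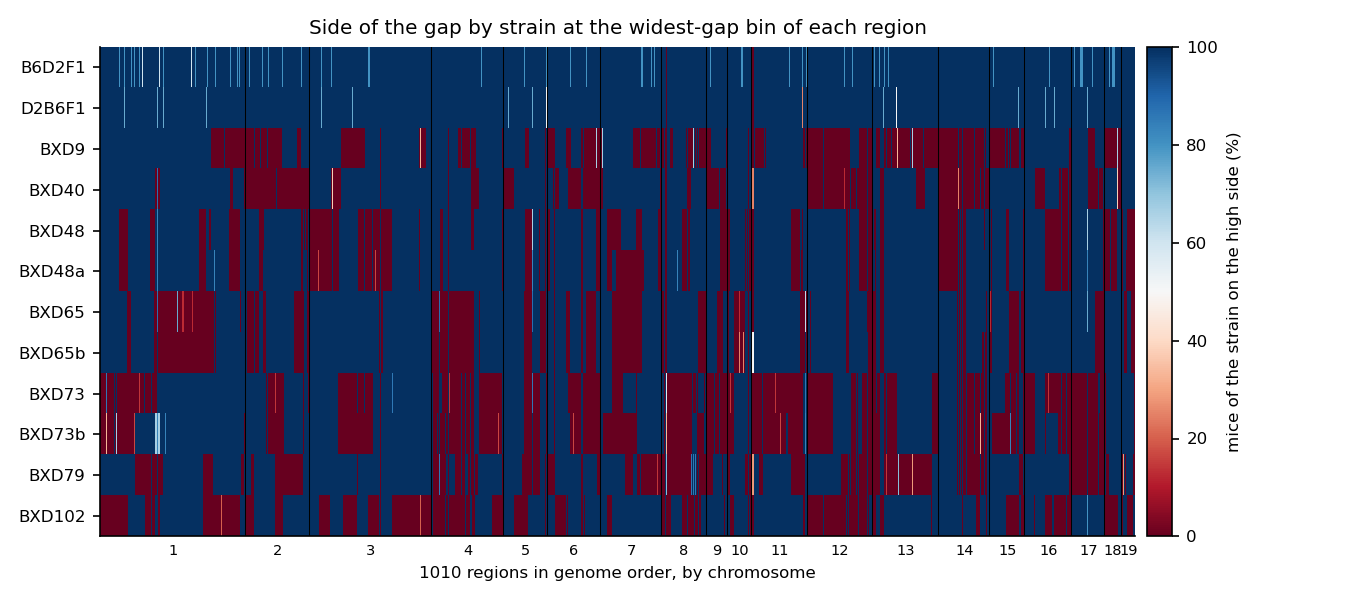
Side of the gap for 12 strains and crosses (vertical axis) at the widest-gap bin of each of 1010 regions in genome order by chromosome (horizontal axis), with the share of mice on the high side as colour. The F1 crosses are on the high side nearly throughout, sub-strains mostly match their sister strain, and runs of neighbouring regions share a pattern.

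The bins lay on all 19 autosomes, but unevenly. On chromosome 3 they made up 1.38% of the eligible bins (199 bins) and on chromosome 1 they made up 1.22% (202 bins), against 0.184% on chromosome 9 (27) and 0.177% on chromosome 18 (18).

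The widest gap was at chr8:20946151-20946300, an intergenic bin with 9 CpGs 1403 bases from the gene AY761185, assigned to group 1. The low side held 25 mice with a median of 0.66 logRPKM (0.11 to 2.14) and the high side held 44 mice with a median of 6.90 (5.95 to 7.26). BXD102 mice were at 1.12, 0.53, 0.49, 1.45 and 1.79, and all mice of BXD73, BXD73b and BXD79 were at or below 2.14. The 8 BXD40 mice had 6.74 to 7.14, and the 9 F1 mice, at 5.95 to 6.19, lay below every inbred mouse of the high side. Low mice had a median of 2 reads and high mice of 283.5. A neighbouring bin, chr8:20947801-20947950 of group 4, had the same 4 strains low, with 0.13 to 2.28 on the low side and 5.37 to 6.79 on the high side.

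At 3 further wide gaps 1 to 3 strains were low. At chr3:138207451-138207600, in an intron of Adh7, an alcohol dehydrogenase that also oxidizes retinol, the 5 BXD102 mice were at 0.13 to 0.63 and the other 64 mice at 3.10 to 4.60. Their region held 8 two-state bins with 1 pattern. At chr16:39583201-39583350 the 8 BXD40 mice were at 0.08 to 0.51 and all others at 2.71 to 4.31. At chr10:68411701-68411850, in an intron of Gm40683, BXD102, BXD73 and BXD73b were low (0.15 to 1.48, n = 18) and the rest high (3.59 to 5.06, n = 51). None of these groups of mice overlapped, which the rule ensured.

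The region with the most members had a low state well above the floor, unlike most two-state bins. At chr4:118547101-118548750, over an exon of the noncoding gene Gm40237, 9 two-state bins had the same pattern, with BXD48a and the F1 mice high and the 9 other inbred strains low. At chr4:118547851-118548000 the BXD48a mice were at 9.88, 10.04 and 10.27 on CD and at 10.95, 9.83 and 10.45 on HFD. The 3 BXD48 mice on CD were at 5.01, 4.43 and 5.46, and those on HFD at 5.51, 5.38 and 5.37. The F1 mice, at 9.29 to 9.64, were nearer to BXD48a on this log2 scale. On the linear scale, with the mean of the low inbred mice at 0 and that of the high ones at 1, they lay at 0.542. Low mice still had a median of 104 reads, against 2285 in high mice, and no base of the bin was soft-masked as a repeat in the reference. The other regions with many members were chr1:114211501-114213150 (5 bins, BXD65 and BXD65b low at 0.22 to 1.64 against 3.62 to 4.86 at its widest bin), chr6:10397401-10398600 (6 bins, BXD79 and BXD9 low at its widest bin) and chr3:140156551-140157450 (6 bins, BXD102 low at its widest bin).

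**Figure D2:**
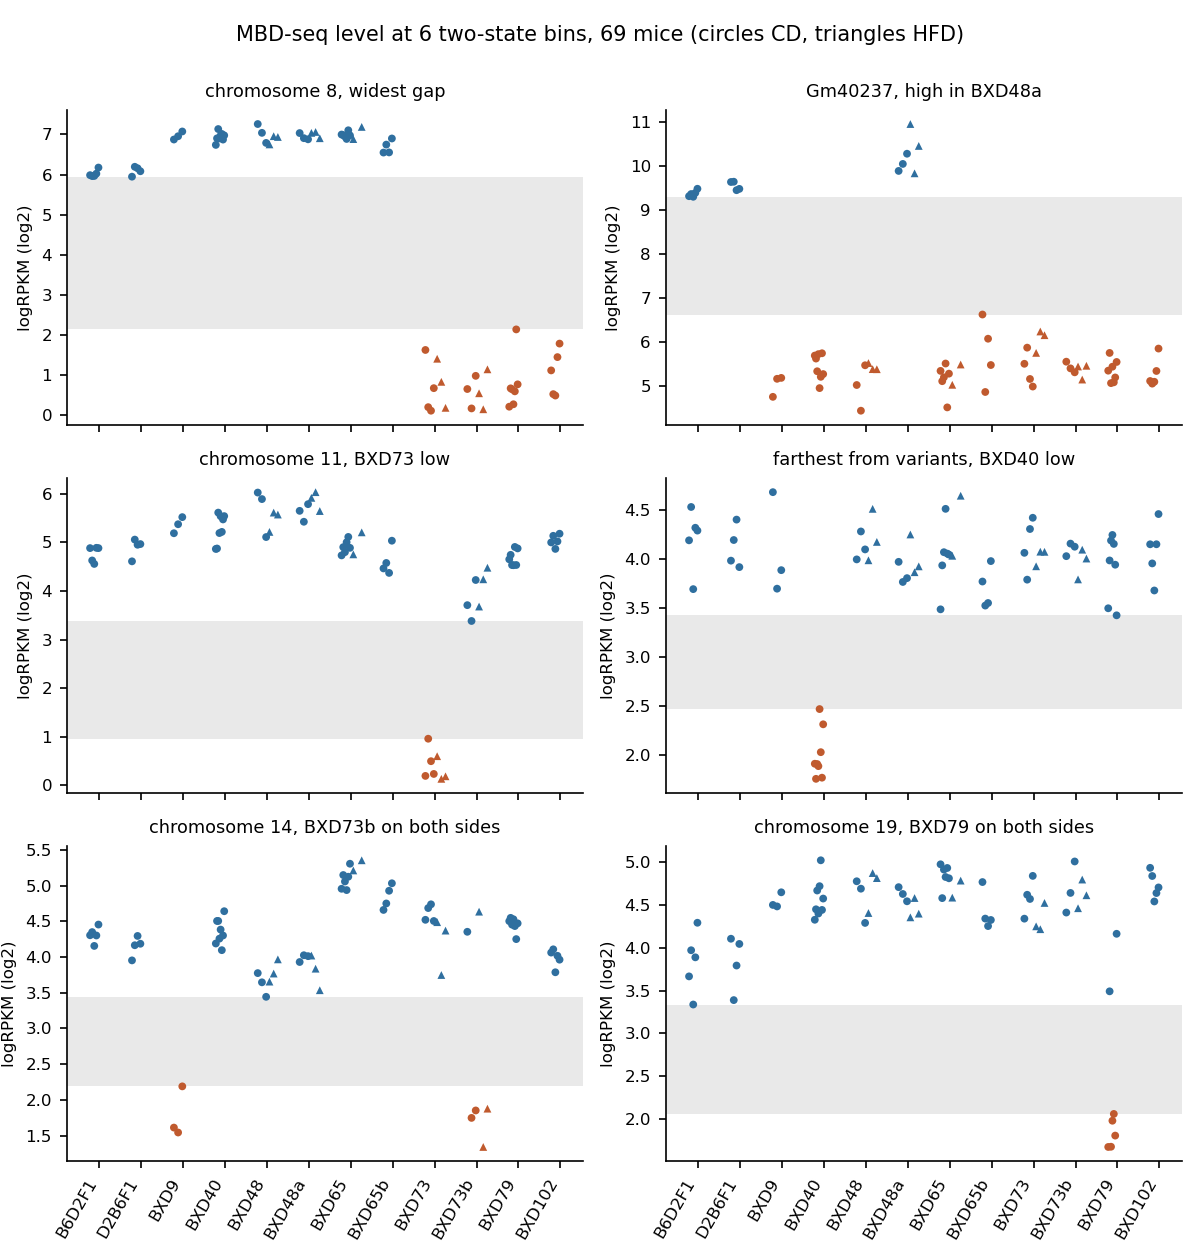
Methylation level (logRPKM, vertical axis) of each of the 69 mice by strain or cross (horizontal axis) at 6 two-state bins, with circles for CD, triangles for HFD, blue and orange points for the high and the low side and a grey band for the gap. The low and high mice do not overlap by construction, the F1 mice sit just above the gap in the 2 uppermost panels, and BXD73b and BXD79 have mice on both sides in the lower panels.

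Most of the two-state bins lay in repeated sequence. These shares hold for bins with reads in every mouse. The 10955 bins with such a gap that were left out for a mouse without reads were not examined for repeats. All 150 bases were soft-masked as repeats in 1240 bins (82.3%), against 16.4% of eligible bins, and 1396 bins (92.7%) were masked over most of their length, against 26.7%. The 30-base words of a two-state bin occurred a median of 336 times in the genome, against 1 time for eligible bins. Of bins whose median word occurred fewer than 1.5 times, 0.0270% had 2 states (56 of 207632), and the share was 0.50% for 1.5 to 10 copies, 1.83% for 10 to 100, 2.94% for 100 to 1000 and 3.20% (367 of 11484) for 1000 or more. They were also rich in CpGs, with a median of 8 per bin against 5, and the share with 2 states went from 0.197% of bins with under 4 CpGs to 2.11% of bins with 11 or more. Two-state bins with variants were less repeated (39.0% fully masked, with 5 copies of the median word).

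**Figure D3:**
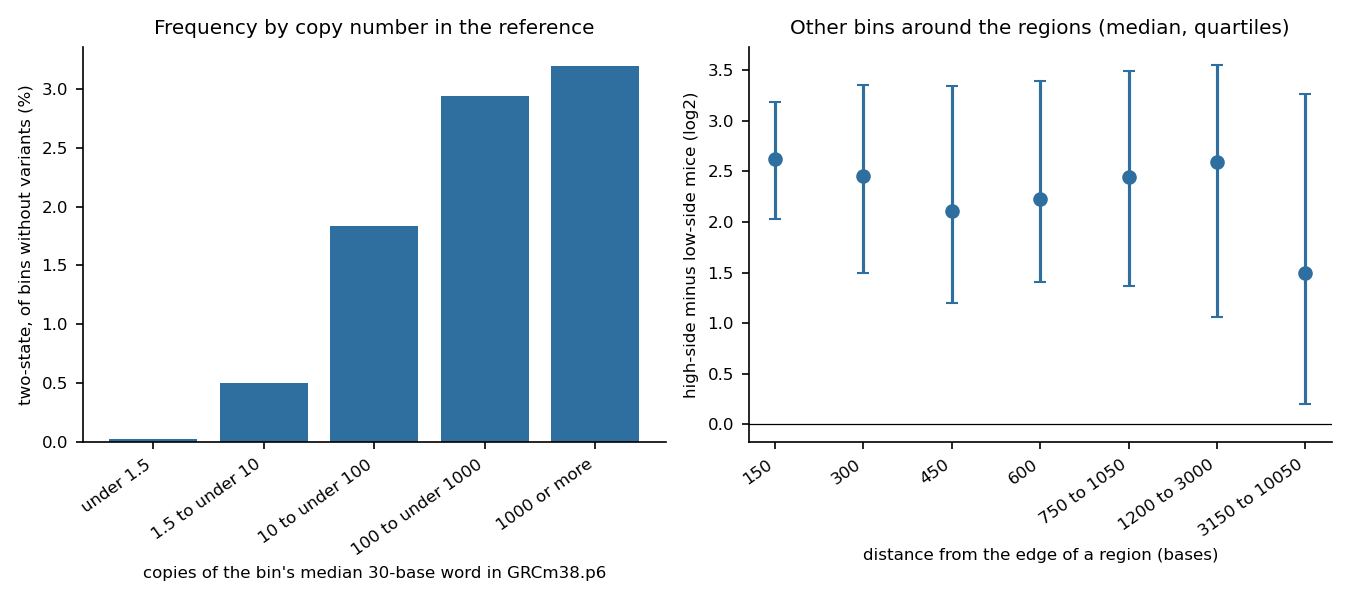
Left, share of eligible bins with 2 states (percent, bars) by the number of copies of the bin's median 30-base word in the reference. Right, difference between the mice of the high and low sides (log2) in other bins around the 1010 regions by distance in bases, as median (points) and quartiles (bars). The share climbs from 0.0270% to 3.20%, and the median difference is over 2 up to 3000 bases.

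By letters, most two-state bins fell into a few groups of linked sequence. Linking bins that shared at least 26 of their 131 words of 20 bases gave 219 groups, and the 8 largest held 1215 bins (80.7%). Group 1, whose printed bin has the letters of an IAP long terminal repeat, had 375 bins in 280 regions on 19 chromosomes. Of these, 60 were linked directly to the printed bin, and the rest through other bins. Group 2, whose printed bin has the letters of an L1 5′ end, had 331 bins in 231 regions, with 182 linked directly to that bin. Group 3 had 214 in 145 and group 4 had 128 in 86. Groups 5 to 8 held 75, 44, 32 and 16 bins. In 27 regions bins of groups 1 and 4 stood together, while no region combined groups 1 and 2, 1 and 3 or 2 and 3. Most eligible bins that shared letters with a group were not two-state. Of the eligible bins that shared at least 26 words with a bin of a group, 2.70% had 2 states for group 1, 3.79% for group 2, 2.66% for group 3 and 5.84% for group 4. Over the 8 groups this was 3.28% of 37060 bins, against 0.120% of the 242702 bins that shared fewer. The groups were built from the two-state bins themselves, so every grouped bin counted as sharing. This contrast was thus partly set in advance and was given no test. The groups resembled one another in level, with means on the high side whose medians lay between 3.88 and 4.34 logRPKM.

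Coding exons and promoters were seldom hit. Of the 1506 bins, 1029 (68.3%) were intergenic and 430 (28.6%) intronic, against 34.4% and 33.3% of eligible bins. Coding exons held 8 (0.531%, against 23.0%) and promoters, counted from 1000 bases before to 100 after a start, held 15 (0.996%, against 2.84%). The widest gap among these was at chr4:146750401-146750550, in the promoter of Gm20875 and within the gene Zfp993, where BXD102, BXD73 and BXD73b mice were at 0.53 to 2.22 and the others at 4.27 to 5.72. At chr6:73287901-73288050, in a coding exon of Gm40378, the 5 BXD102 mice were at 0.11 to 0.53 and the others at 2.57 to 4.39. In a coding exon of Nat8f3, an N-acetyltransferase gene (chr6:85761751-85761900), BXD65, BXD65b and BXD9 were low (0.19 to 1.58) and the others were at 2.55 and above. This bin had 2 CpGs and its median word occurred 3 times. The remaining promoter bins of the 5 widest were those of Gm12505 (chr4:55418851-55419000, gap 1.75) and Gm34256 (chr16:31594951-31595100, gap 0.96, BXD40 low).

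Of the gene lists, multicopy families stood at the highest share. In or within 10000 bases of genes of the olfactory receptor, vomeronasal receptor, major urinary protein, H2, Klra, Skint, defensin and serpin families lay 52 two-state bins (3.45%, against 0.942% of eligible bins), near 36 genes. The widest gaps among them were at chr16:59177701-59177850 near Olfr196 (gap 1.66), chr2:111851401-111851550 in the pseudogene Olfr268-ps1 (1.46) and chr17:23260351-23260500 in the pseudogene Vmn2r-ps133 (1.40). Cytochrome P450, transferase, esterase and transporter families, which handle drugs and lipids in the liver, had 17 (1.13%, against 0.681%). Zinc finger genes of the Zfp symbols had 16 (1.06%, against 1.32%), and the imprinted genes had 1 (0.0664%, against 0.293%). None was near the 15 genes of the methylation machinery with an eligible bin, such as Dnmt1, the maintenance methyltransferase, and these genes hold 0.124% of eligible bins.

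Some of these bins lie in genes of liver metabolism. In an intron of Abcd3, a transporter of the peroxisome membrane, chr3:121770901-121771050 was low in BXD48 and BXD48a (0.92 to 1.91, n = 12) and high in all others (3.21 to 4.82, n = 57). That bin held 13 CpGs, was not masked, and its median word occurred 2 times. At chr19:39145801-39145950 in Cyp2c66, a P450 of the 2C family, BXD102, BXD48 and BXD48a were low (0.56 to 2.20) and the rest high (3.27 to 5.04), over a region of 4 bins. Near the pseudogene Cyp2a21-ps, chr7:26960251-26960400 was low in the 6 BXD73b mice (0.86 to 1.69), while their sister strain BXD73 was at 3.51 to 4.25. Among zinc finger genes, the widest gaps after that in Zfp993 were at chr13:67643401-67643550 near Zfp729a (1.67) and chr4:147839101-147839250 in Zfp933 (1.44).

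The single imprinted locus was Snrpn, expressed from the paternal copy only. At chr7:60322351-60322500, in an intron of Snrpn and of the noncoding gene Snhg14, the gap of 0.67 was close to the threshold. BXD48a, BXD65, BXD65b, BXD73b and BXD79 mice were at 0.22 to 2.16 and the rest at 2.83 to 4.45. The B6D2F1 mice had 3.15 ± 0.30 (SD, n = 5) and the D2B6F1 mice 3.41 ± 0.37 (n = 4), and their ranges of 2.83 to 3.47 and 2.86 to 3.63 overlapped. The direction of the cross did not separate them. The bin near a host of variably methylated IAP elements, chr7:4455301-4455450, lies in an intron of Rdh13, a retinol dehydrogenase, within 10000 bases of Eps8l1, but its printed letters occur once and only 7.33% of them are masked. The 8 BXD40 mice were at 0.97 to 1.77 there, and 1 of 3 BXD9 mice was low at 1.93 while the other two were at 3.62 and 3.71.

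Two-state bins lay nearer to listed variants than other bins without variants. The median distance to the nearest bin with variants was 4575 bases (quartiles 300 and 30000), against 46800 for eligible bins. The share of bins with 2 states was 1.07% at 150 bases, 1.27% at 300 to 1050, 0.892% at 1200 to 10050, 0.560% at 10200 to 100050 and 0.102% beyond. In that last class lay 107 two-state bins (7.10%). The distance counts only variants in captured bins, and variants between bins were not analysed here.

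At the 5 regions farthest away the gaps ran from 0.63, close to the threshold, to 1.63. At chr12:95617501-95617650, 1522500 bases from a bin with variants, the 8 BXD40 mice were at 1.91, 1.76, 1.91, 1.89, 2.47, 2.03, 1.77 and 2.32 and the other 61 mice at 3.43 to 4.68. In this bin of group 3 the F1 mice, at 3.69 to 4.53, lay within the range of the high inbred mice. At chr12:38748151-38748300 BXD102, BXD40 and BXD9 were low, with 0.11 to 1.71 against 3.04 to 4.78. In the immunoglobulin heavy chain locus Igh, chr12:115424551-115424700 was high in BXD102 (4.24 to 4.77) and the F1 mice (3.34 to 4.04) alone, with 55 mice at 0.08 to 1.71. The other 2 were chr11:37634101-37634250, with a gap of 0.63, and chr14:114903451-114903600, described with the sub-strains.

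Strain patterns were shared locally. For two-state bins with each strain on 1 side, the pattern over the 10 inbred strains was set against that of the nearest such two-state bin with variants within 1 Mb. It was the same at 667 of 769 bins (86.7%) and the exact opposite at 7. By separate classes of distance, the pattern was the same in 95.8% of pairs up to 1000 bases apart and 88.1% of those over 1000 to 10000. The share was 85.3% over 10000 bases to 0.1 Mb and 83.4% over 0.1 to 1 Mb. Farther apart it was 61.5% over 1 to 5 Mb and 26.1% over 5 Mb. Among 654098 pairs on different chromosomes 1.32% were the same. Neighbouring two-state regions without variants shared their pattern alike, again by separate classes. The share was 95.1% of 61 pairs up to 10000 bases and 80 of 86 pairs over that to 0.1 Mb. It was 80.5% of 390 pairs over 0.1 to 1 Mb, 57.6% of 271 over 1 to 5 Mb, and 1.14% on other chromosomes. Bins of 1 region or haplotype share their source, so the shares of bins were given no interval.

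**Figure D4:**
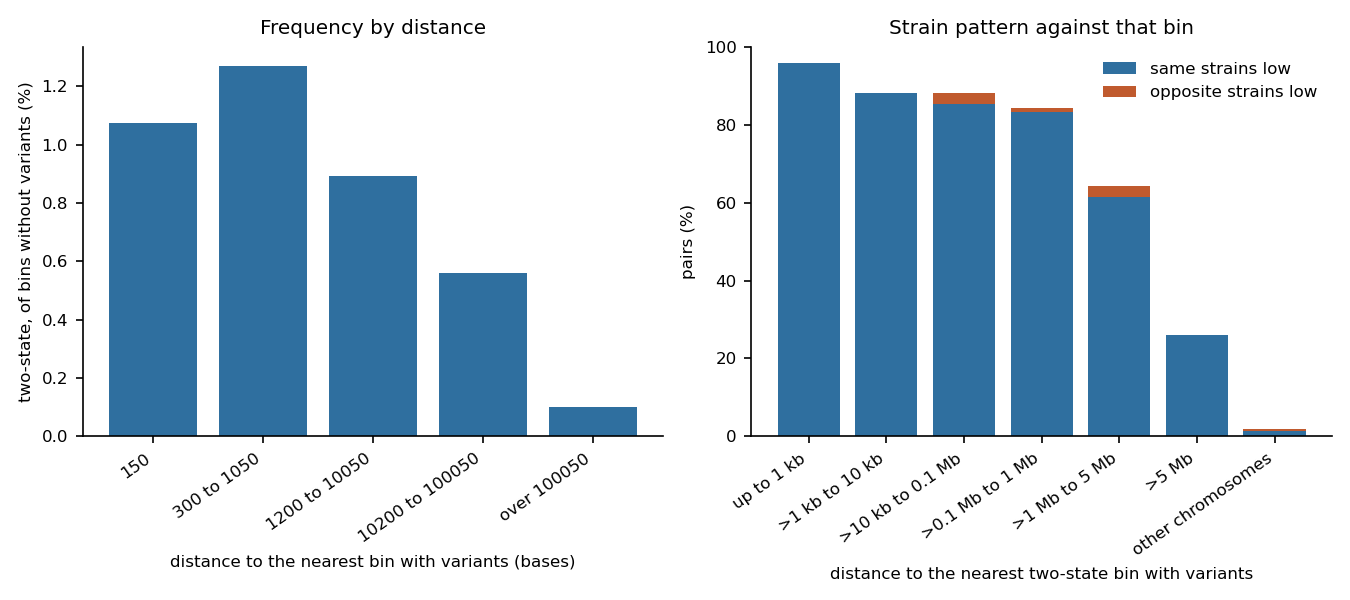
Left, share of eligible bins with 2 states (percent, bars) by distance in bases to the nearest bin with variants. Right, pairs (percent, bars) in which a two-state bin has the same (blue) or the exact opposite (orange) strain pattern as the nearest two-state bin with variants, by distance, with all pairs on other chromosomes at the far right. The share with the same pattern falls from 95.8% to 26.1%, with 1.32% on other chromosomes.

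The difference did not end at the edge of a region. In the next bin outside a region, the mice of the high side exceeded those of the low side by a median of 2.62 log2 units (quartiles 2.03 and 3.19, 1497 bins). The median was 2.45 at 300 bases, 2.11 at 450, 2.23 at 600, 2.44 at 750 to 1050, 2.59 at 1200 to 3000 and 1.49 at 3150 to 10050. Of 3971 other bins within 1050 bases of a region, 3574 differed by over 1, and at 1958 (49.3%) a mouse of the low side had no reads, which kept many of them out of the rule. At 2 of them all low mice lacked reads. These neighbours lie beside bins chosen for the same contrast, so the values are descriptive.

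The F1 mice, which carry 1 haplotype of each parent, were nearly always on the high side on the log2 scale. All 9 were high at 1413 bins (93.8%), all were low at 5 and they were split at 88, of which 78 had 8 high mice. Two-state bins with variants were alike, with all 9 high at 94.8%. On the linear scale the F1 mice lay midway. With the mean of the low inbred mice set to 0 and that of the high ones to 1, the F1 mean had a median of 0.561 (quartiles 0.520 and 0.609) over the 1505 bins with inbred mice on both sides. It fell between 0.25 and 0.75 at 1411 bins, above at 89 and below at 5. These classes hold for the linear scale only, since on the log2 scale 627 bins fell between 0.25 and 0.75 and 873 above. The median was 0.555 for B6D2F1 and 0.569 for D2B6F1, and it ranged from 0.499 to 0.633 over the 9 mice (0.563 ± 0.0389, SD, n = 9). In the two-state bins with variants it was 0.548. The medians of the 8 groups of sequence lay between 0.541 (group 8) and 0.583 (group 5). Since the rule used the F1 mice, bins at which they fell into the gap were lost. By the 60 inbred mice alone there were 3098 two-state bins without variants, 1505 of them among the 1506. Their median F1 level, a value added after the data were seen, was 0.543, and it was 0.524 in the 1593 bins found only that way.

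**Figure D5:**
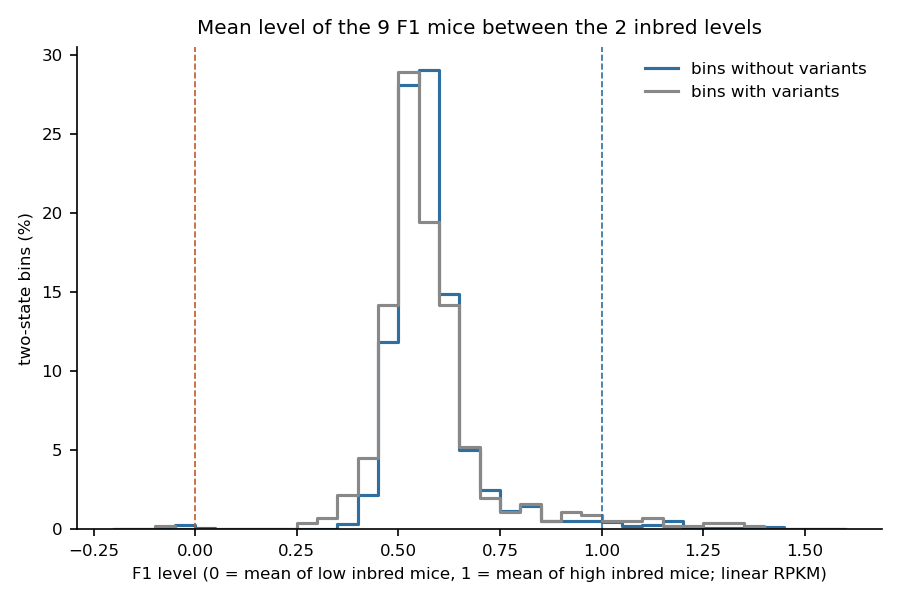
Distribution (percent of bins, vertical axis) of the mean level of the 9 F1 mice on the scale from the mean of the low inbred mice (0) to that of the high inbred mice (1) in linear RPKM, for two-state bins without (blue) and with (grey) variants. The median is 0.561 without and 0.548 with variants, and 89 bins without variants lie above 0.75.

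In 89 bins of 61 regions the F1 mice were above 0.75, at or near the high inbred level. In 51 of these (57.3%) a single strain or a strain and its sub-strain was low, against 24.7% of the bins at 0.25 to 0.75. The pattern of the nearest two-state bin with variants within 1 Mb was the same at 18 of 35 (51.4%), against 649 of 734 (88.4%). BXD40 was the only strain low in full at 12 bins, BXD102 at 10 and BXD79 at 8. BXD73 and BXD73b were low together at 7, BXD73 alone at 4 and BXD73b alone at 2. Among all two-state bins with each strain on 1 side, BXD40 alone was low at 41, BXD102 alone at 97 and BXD79 alone at 16. There, BXD73 and BXD73b were low together at 73, BXD73 alone at 5 and BXD73b alone at 13. The classes were formed on the F1 values, and the counts were given no test.

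Several bins of this kind were named after their values were seen. At chr15:56908351-56908500, a bin of group 2 with 12 CpGs and 448950 bases from a bin with variants, the 7 BXD79 mice were at 1.48, 1.71, 1.85, 1.37, 1.41, 1.81 and 2.03, the 9 F1 mice at 4.12 to 4.71 and the 53 other inbred mice at 3.66 to 4.83. The F1 level was 1.17. At chr2:46729951-46730100 the 8 BXD40 mice were at 1.61 to 2.25, BXD65 at 3.28 to 4.10, the F1 mice at 4.95 to 5.23 and BXD73 at 5.06 to 5.93, so that the high side itself was spread. At chr12:64395751-64395900 BXD40 was at 0.12 to 1.46 and BXD65b and BXD9 at 2.08 to 3.34, and the 9 F1 mice, at 4.04 to 4.55, lay within the range of BXD73 (3.90 to 4.93). A member 300 bases on, chr12:64396051-64396200, had BXD40, BXD65, BXD65b and BXD9 low together, so that neighbouring bins placed the intermediate strains on different sides.

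Sub-strains mostly shared their side. BXD65 and BXD65b were opposite at 5 of 1487 bins (0.336%), BXD48 and BXD48a at 53 of 1494 (3.55%) and BXD73 and BXD73b at 135 of 1475 (9.15%). The opposite bins were clustered. For BXD73 and BXD73b, 41 lay on chromosome 7 between 26887651 and 78900600, all with BXD73 high, 24 on chromosome 1, 22 on chromosome 15 and 19 on chromosome 16, and within each of these 4 chromosomes the same sub-strain was high throughout. On chromosome 8 it was not, with BXD73 high at 5 bins and BXD73b at 4. For BXD48 and BXD48a, 31 lay on chromosome 7, with BXD48 high at 24 and BXD48a at 7. The 11 on chromosome 4, among them the 9 bins of Gm40237, all had BXD48a high. The variant counts of the bins carry no strain genotypes, and whether these clusters match variants between sub-strains was not tested.

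After Gm40237, the widest gaps with sub-strains on opposite sides were 2.42 and 2.31, both between BXD73 and BXD73b. At chr11:31454551-31454700, in sequence group 1, the BXD73 mice were at 0.19, 0.96, 0.50 and 0.23 on CD and 0.60, 0.13 and 0.19 on HFD. The BXD73b mice were at 3.71, 3.38 and 4.22 on CD and 3.68, 4.24 and 4.48 on HFD, below the other high mice on the whole (4.37 to 6.03). Here BXD73 alone was low. At chr7:26887801-26887950 the order was turned, with the BXD73b mice at 0.22 to 1.34, the BXD73 mice at 4.22 to 4.81 and the F1 mice at 3.65 to 4.32. At chr15:19050451-19050600 BXD73b (0.15 to 1.48) and BXD9 (1.13 to 1.19) were low and BXD73 was at 3.80 to 4.16.

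BXD48 and BXD48a differed most widely, after Gm40237, in an intron of Nipa2, a magnesium transporter gene (chr7:55947901-55948050), with BXD48 at 4.14 to 4.71 and BXD48a at 0.73 to 1.84. In Prkg1, a cGMP-dependent kinase gene (chr19:30763201-30763350), they were at 3.43 to 4.25 and 0.73 to 1.77. At chr14:114903451-114903600, 481650 bases from a bin with variants, BXD48 was the only low strain, at 2.06, 2.56 and 2.20 on CD and 2.15, 2.42 and 2.32 on HFD, against 3.65 to 4.31 in BXD48a. The F1 mice there were at 3.86 to 4.62, a level of 1.12. BXD65 and BXD65b were opposite in a coding exon of Ahnak2 (chr12:112779001-112779150), a gene of large scaffold proteins, with all 8 BXD65 mice at 0.59 to 2.05 and the 4 BXD65b mice at 3.38, 3.39, 4.02 and 3.71. The F1 level was 1.20, and BXD65 alone was low. The other 2 named for this pair were chr1:183571201-183571350, with BXD65 at 0.68 to 1.80 and BXD65b at 3.53 to 3.98, and chr14:105972301-105972450, with BXD65 at 3.67 to 4.51 and BXD65b at 0.22 to 0.83.

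At 164 bins mice of 1 strain or cross fell on both sides, 83 with an inbred strain and 81 with F1 mice only. In 162 of the 208 cases a single mouse stood against the rest of its strain. B6D2F1 CD replicate 3 stood alone at 41 bins and with another mouse at 3 more, in all more often than any other mouse, and it had the lowest median F1 level (0.499). Its depth was 16489731 reads, against a median of 17442567 over the libraries. In 29 bins of 23 regions at least 2 mice of an inbred strain stood against its others, and the same mice recurred. BXD79 CD replicates 2 and 7 stood together at 8 bins of 5 regions on 3 chromosomes. BXD73b CD replicate 1 and HFD replicate 1 did so at 7 bins of 5 regions on 2. These pairs of mice were seen in the data and come from no label, and what they share was not tested.

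At chr19:17941951-17942100, the widest such gap, BXD79 CD replicates 2 and 7 were at 3.49 and 4.16 and the other 5 BXD79 mice at 1.67, 1.68, 1.98, 2.06 and 1.81. All mice of other strains were at 3.34 to 5.02, with the F1 mice in the lower part of that range at 3.34 to 4.29. At chr14:100693951-100694100 BXD73b CD replicate 1 and HFD replicate 1 were at 4.35 and 4.64 and the other 4 at 1.75, 1.85, 1.34 and 1.88, near the 3 BXD9 mice (1.61, 1.54 and 2.19). At chr1:79937101-79937250 the same pair was low, at 0.99 and 0.86, with the other BXD73b mice at 4.04 to 4.27. In the major urinary protein pseudogene Mup-ps15, chr4:61685701-61685850 had 1 BXD73 mouse at 3.20 and the other 6 on the low side, with the lowest at 0.18. In Inpp4b, an inositol phosphatase gene, chr8:81721351-81721500 had 1 of 7 BXD79 mice low, at 1.71. Mice of both diets were among these, and no bin split a strain by diet in any of the 5 strains with both.

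A different kind of split was seen in an intron of Sfi1, a gene for a centrosomal protein, in a bin named after its values were seen. At chr11:3172201-3172350, with 1 CpG, the high mice were 2 of 8 BXD40 (6.72 and 5.04), 2 of 4 BXD65b (6.80 and 5.38) and 2 of 7 BXD79 (5.12 and 5.37), and the remaining 63 mice were spread from 0.15 to 3.97. The 3 libraries with the fewest reads of the 69, at most 13717507 against at least 14451384 in the others, were among these 6, and the highest 2 values came from the shallowest 2. Without these libraries 3 high mice would remain, under the 5 that the rule asks for, and the part of depth was not tested. Strain took up 24.6% of the variance. All F1 mice were low at this bin, at 3 other two-state bins near it and at 1 on chromosome 8, which are the 5 with low F1 mice. At the 4 bins on chromosome 11, BXD79 CD replicates 2 and 7 stood together, and these 4 are among the 8 bins already counted for that pair. At chr3:26347051-26347200, also named after its values were seen, levels fell in more than 2 steps, with BXD40 at 0.19 to 1.46, BXD48 and BXD48a at 1.79 to 2.87, the F1 mice at 3.39 to 4.25 and all others at 4.09 to 5.04, and the gap of 0.85 cut through BXD40.

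The mouse kept out of the rule was placed on its own. With the middle of each gap as the border, BXD65 HFD replicate 2 was low at 660 bins and high at 846, and 77 of these values lay inside the gap. It matched the side of the 12 strains at 49.5% (BXD48) to 65.1% (BXD73b) of bins, and that of BXD65, its labelled strain, at 60.6%, below BXD73, BXD40 and BXD65b as well.

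Diet, age and the direction of the cross were tested with limma on all 368300 bins, since the rule used none of them. Diet was compared in the 33 mice of the 5 strains with both diets, with strain as a covariate. No two-state bin was called at an adjusted p (Benjamini-Hochberg) under 0.05, beside 0% of all bins, and the smallest adjusted p of a two-state bin was 0.999. The unadjusted p was under 0.05 at 88 of the 1506 (5.84%), beside 4.78% of all bins. HFD minus CD had a median of -0.02 log2 units over the two-state bins and of 0.00 over all bins. Age at collection was tested in 69 mice with strain-by-diet group and body weight at young adulthood (BW0) as covariates. No two-state bin was called, beside 0.0413% of all bins, with the smallest adjusted p at 0.238. The unadjusted p was under 0.05 at 58 (3.85%), beside 6.01%. Between the 5 B6D2F1 and the 4 D2B6F1 mice no two-state bin was called, beside 0.000815% of all bins, the smallest adjusted p was 0.990, and the unadjusted p was under 0.05 at 57 (3.78%), beside 4.62%. The edgeR quasi-likelihood test on recovered reads called no two-state bin either, beside 0% of all bins for diet, 0.0377% for age and 0.00217% for the crosses. Its unadjusted p was under 0.05 at 57 two-state bins for diet (beside 4.55% of all bins), at 43 for age (5.74%) and at 65 for the crosses (4.51%). Among the 7 female F1 mice alone limma called 1 two-state bin and 339 bins in all. A p-value here measures the spread between mice of these groups, and one that misses the threshold does not show that the groups were alike.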

How the data were processed

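Liver DNA was captured with the MethylMiner kit (a methyl-CpG binding protein) and sequenced as 150 bp paired-end reads, with 1 library per mouse. Per the methods and the submitters' processing notes, the authors checked reads with FastQC 0.11.8, aligned them with Bowtie2 2.3.4.3 to mm10 (GRCm38), used SAMtools 1.9, removed duplicates and reads of low mapping quality, counted reads in 150 bp bins with MEDIPS and computed log2 RPKM in edgeR. The deposited values are log2 RPKM for 368300 bins, with counts of CpGs and of sequence variants per bin. The deposited fraction of CpG and of GC per bin was not used. A prior count of 2 was inferred from the lowest values, and the values were turned back into read numbers by taking off the lowest value on the linear scale and dividing by the worth of 1 read, which gave a whole number (within 0.05) for 100% of the values of each library. Reads shared by repeats can be placed on the wrong copy, and reads below the mapping quality limit were lost, so levels in repeated bins rest on the reads that could be placed.

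The members and gene lists were chosen with earlier results of these data known. A bin's sides were set by its widest gap among the 69 sorted values that left at least 5 mice a side. Bins were placed on the RefSeq annotation of GRCm38.p6, whose CpG count equalled the deposited one in 338224 of 338224 bins compared. Words of 30 bases were counted over the genome, and bins sharing 26 of 131 words of 20 bases were grouped. Named were the 8 regions with the widest gap, the 5 with the most members, the 5 farthest from variants, up to 5 with a strain on both sides, up to 5 in promoters or coding exons, up to 3 per sub-strain pair and per gene list, and the bins next to the threshold. CpG islands, part of the same rule, were not used here. No two-state bin was called for diet, age or cross, so none was named for these.

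Tests used limma 3.58.1 (empirical Bayes with an intensity trend, two-sided, Benjamini-Hochberg over all bins) and edgeR 4.0.16 in R 4.3.3; other steps used Python 3.11.15 with numpy 2.4.6, pandas 2.3.3 and scipy 1.17.1. Age at collection and BW0 came from the study's sample table. Replicate numbers follow the order of the samples. Alternatives were other gaps and side sizes, other sets of mice, prior counts of 0.5 and 5, median-centred values, a mean of at least 20 reads, other covariates, a random intercept per group, no trend, and leaving out each mouse. The edgeR test and the F1 level in bins found from inbred mice were chosen after seeing the data. The gap rule and the limma fit were tested on simulated data.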

Additional observations from a re-analysis of the deposited data

Results flagged for a closer look

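At the 48 two-state bins named, 6 of them chosen after their values were seen, 384 sets of mice of 1 group at 1 bin had enough mice to compare the farthest mouse with the rest by Dixon's ratio, and 25 sets (6.51%), from 21 bins, exceeded the 95% critical value. Chance alone gives about 1 in 20. On the low side such a distance can be a step of very few reads. The low BXD102 CD mice had a median of 2 reads at chr3:138207451-138207600 and of 1 read at chr6:73287901-73288050. Each such mouse is given in logRPKM with the median and size of its group. At chr8:20946151-20946300 the highest B6D2F1 CD mouse was at 6.18 (5.99, n = 5) and the highest BXD79 CD mouse was at 2.14 (0.65, n = 7). At chr3:138207451-138207600 the lowest BXD102 CD mouse was at 0.13 (0.53, n = 5). At chr16:39583201-39583350 the lowest BXD65 CD mouse was at 3.50 (3.94, n = 6). At chr10:68411701-68411850 the lowest B6D2F1 CD mouse was at 3.60 (3.86, n = 5). At chr6:73287901-73288050 the highest BXD102 CD mouse was at 0.53 (0.15, n = 5) and the highest BXD73 CD mouse was at 4.3 (3.86, n = 4). At chr4:55418851-55419000 the lowest BXD102 CD mouse was at 3.79 (4.19, n = 5) and the lowest D2B6F1 CD mouse was at 4.16 (4.66, n = 4). At chr16:59177701-59177850 the highest BXD65 CD mouse was at 4.87 (4.48, n = 6). At chr4:147839101-147839250 the lowest BXD65 CD mouse was at 4.87 (5.28, n = 6). At chr7:26960251-26960400 the lowest B6D2F1 CD mouse was at 3.13 (3.55, n = 5). At chr7:55947901-55948050 the lowest BXD65 CD mouse was at 0.28 (0.78, n = 6). At chr12:38748151-38748300 the highest BXD73 CD mouse was at 4.77 (4.34, n = 4). At chr19:17941951-17942100 the highest BXD65b CD mouse was at 4.77 (4.33, n = 4). At chr14:100693951-100694100 the lowest BXD79 CD mouse was at 4.25 (4.47, n = 7). At chr8:81721351-81721500 the lowest BXD79 CD mouse was at 1.71 (3.60, n = 7), the 1 mouse of the 25 that lay on the other side of the gap than its group's median. At chr19:30763201-30763350 the lowest B6D2F1 CD mouse was at 2.94 (3.17, n = 5). At chr11:3172201-3172350 the lowest BXD65 CD mouse was at 0.17 (1.86, n = 6). At chr6:85761751-85761900 the highest BXD102 CD mouse was at 3.83 (3.36, n = 5) and the highest BXD65 CD mouse was at 1.58 (0.66, n = 6). At chr12:112779001-112779150 the highest BXD102 CD mouse was at 4.50 (3.75, n = 5). At chr3:26347051-26347200 the lowest B6D2F1 CD mouse was at 3.53 (4.04, n = 5). At chr7:60322351-60322500 the lowest D2B6F1 CD mouse was at 2.86 (3.58, n = 4). At chr12:64395751-64395900 the lowest B6D2F1 CD mouse was at 4.04 (4.37, n = 5).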

How the results depend on the processing

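The number of two-state bins was 874 with a gap over 0.8 and 3098 with the 60 inbred mice alone, which kept 1505 of the 1506. It stayed within 1.5 times of 1506 with a gap over 0.5 (2025), at least 3 (1647) or 8 (1355) mice a side, all 70 mice (1407), 66 females (1599), prior counts of 0.5 (1804) and 5 (1098), median-centred values (1597) and a mean of at least 20 reads (1393). Leaving out each mouse gave 1427 to 1664, the highest without B6D2F1 CD replicate 3. The share of bins with each strain on 1 side was 94.9% with a gap over 0.8 and 78.3% with sub-strains and their sister strain counted together and both F1 crosses as 1, where a difference between sub-strains counts as a split. The median distance to a bin with variants was 19500 bases with at least 2 variants required and 692775 with two-state bins with variants only. The pattern of the nearest two-state bin with variants was the same at 90.9% within 0.1 Mb and at 77.8% within 5 Mb. The median F1 level was 0.759 on the log2 scale. Of 42 named bins, 9 fell below the rule with at least 8 mice a side, 3 each with 66 females, 70 mice, a gap over 0.8 and a prior count of 5, and 2 with a mean of at least 20 reads. For diet and age no alternative called a two-state bin. With group as a random intercept, fitted with 1 correlation of 0.0776 for all bins, the calls for age over all bins went from 152 to 59. Bins with an unadjusted p under 0.05 went from 22143 to 20129 over all bins and from 58 to 0 among the two-state bins. For the crosses, the 7 females called 1. In 111 fits that each left out 1 mouse, 0 to 0 two-state bins were called, while the calls over all bins were 113 to 179 for age and 0 to 115 for the crosses. A low side of 1 to 3 reads limits how low a level can be resolved. No paired analysis was possible because the replicate numbers follow the order of the samples and mark no shared animal or batch.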
